A study of Mus musculus with 8 samples.

Results

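RNA levels of 10 genes of the Z disc and of its crosslinking proteins were followed in mouse skeletal muscle. The genes were chosen by name from a gene table of 36048 entries: the 4 alpha-actinin genes (Actn1, Actn2, Actn3 and Actn4), the scaffold and anchor genes Ldb3, Myoz1, Tcap and Myot, the filamin gene Flnc and the LIM protein gene Csrp3. All 10 were found once each. The 8 RNA sequencing libraries came from endothelial cells (EC, n = 3), satellite cells (SC, n = 2, numbered 1 and 3) and single muscle fibres (SMF, n = 3). EC and SC came from muscles of the hindlimb by flow cytometry, with some 100000 cells in each library, and each SMF library pooled 100 intact fibres of the extensor digitorum longus, picked after 3 h of rest. No genotype, treatment, strain or age is given in the labels for any group, and 1 library, not named there, fell short of the RNA integrity number of 8 reached by the others. Muscle of origin and way of isolation differed together with the population and cannot be told apart from it, and a library of fibres can hold RNA of any cell attached to them.

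The Z disc is the plate that joins neighbouring sarcomeres. Thin filaments of opposite polarity enter it and are crosslinked there by alpha-actinin, an antiparallel dimer that binds actin with both ends. Muscle uses ACTN2 in all striated fibres and ACTN3 in fast fibres, while ACTN1 and ACTN4 crosslink actin at adhesions and stress fibres of other cells. Around the muscle alpha-actinins sit LDB3 (also called ZASP or Cypher), myozenin and myotilin, which bind them, telethonin (the product of Tcap), which caps the end of titin, filamin C, which binds actin and the membrane, and CSRP3 (muscle LIM protein), best known from heart and slow muscle.

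Whether replicates are separate animals is not stated in the labels, and a p-value here weighs a difference only against the spread of these libraries. The labelled populations carried their defining markers. The 6 endothelial markers summed to 1012 to 1044 FPKM (a library's share of fragments on a transcript, corrected for its length in kilobases) in EC and to no more than 22.7 elsewhere, the 6 satellite cell markers to 679.8 to 693 in SC and to no more than 18.8 elsewhere, and the 8 fibre markers to 30642 to 33130 in SMF. In EC, the satellite cell markers Pax7, Calcr and Fgfr4 were listed at 0 in every library. The 8 fibre markers summed to 162 and 257 in SC and to 10.9 to 18.6 in EC. EC replicate 2 stood apart in markers of other cells, with sums of 298 FPKM over 8 mural markers, 17.6 over 6 fibro-adipogenic markers and 10.3 over 6 leukocyte markers, the lowest of the 3 EC libraries in each (highest 725, 83.5 and 77.8). The fibro-adipogenic markers had their highest sums in SC, at 252 and 256 against 22.1 to 43.5 in SMF. Those SC sums were mostly Dpt (mean 99.4) and Col3a1 (111), and Col1a1 was slightly higher in SC (23.1) than in EC (17.9). Pdgfra (1.51 in SC, 1.54 in EC) and Lum (1.89, 3.13) were highest in EC, and Dcn in SMF (20.9, 17.2 in SC). The mural markers summed to 205 and 257 in SC, mostly Acta2 (135 and 194) and Tagln (46.2 and 52.9). All mural markers but Acta2 had lower means in SC than in EC. In SMF the mural sums were 29.0 to 30.6, mostly Abcc9 (mean 22.1). The depth was 278 to 368 Mb of aligned bases for EC and SC, and 525 to 581 Mb for SMF, and 1 fragment on a transcript of 1 kb equalled 0.172 to 0.190 FPKM in SMF and 0.272 to 0.360 in the sorted cells. A listed 0 can be a failed estimate or a level too low to be seen. Even the tubulin gene Tuba1b, which all cells use, is at 2.34, 0.818 and 0 FPKM in SMF replicates 1 to 3. In the sorted cells Tuba1b is at 20.7 to 84.3. Genes with a listed 0 are given per library. In libraries of many cells, fewer cells of a type and less RNA per cell cannot be told apart.

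**Figure D1:**
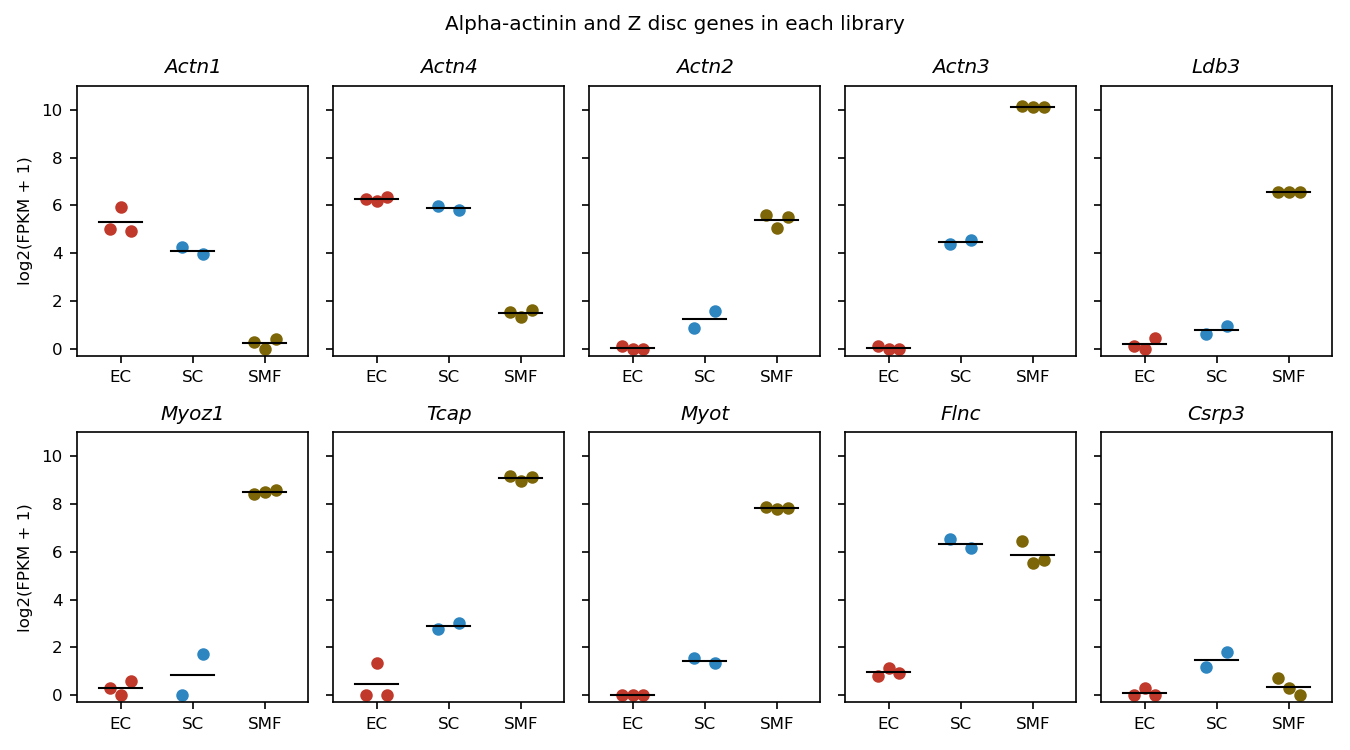
Level of each gene in each library, as log2(FPKM + 1), with EC in red, SC in blue and SMF in brown; each point is a library and each bar the group mean (n = 3, 2 and 3). Actn1 and Actn4 are near the bottom in SMF, Flnc is high in SC and SMF, and Csrp3 stays low in all groups.

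Sequences before the start sites are shown for 4 genes that represent the different patterns of level described below: Actn2 and Ldb3, highest in fibres, Flnc, high in satellite cells and fibres, and Actn4, high in the sorted cells. They are from RefSeq (GRCm38.p6, the assembly that mm10 names), which had entries for 6 of the 10 genes, with none for Actn3, Myoz1, Tcap and Myot. Each runs 5′ to 3′ on the gene's strand within the 250 bases before the annotated start. For Actn2 and Actn4, bases inside the span of the RefSeq gene or of a deposited transcript were left off the end. The Ldb3 stretch lies inside the span of another annotated form of Ldb3. Capitals mark the E-box CANNTG, the MCAT motif CATTCC, the MEF2 site and the CArG box. MyoD and its relatives, among other factors, bind forms of the E-box, TEAD factors bind MCAT and SRF binds the CArG box. GGGCGG and TATAAA were searched as well and are not in capitals. All were searched on both strands.
Actn2, chr13:12340761-12340982, minus strand: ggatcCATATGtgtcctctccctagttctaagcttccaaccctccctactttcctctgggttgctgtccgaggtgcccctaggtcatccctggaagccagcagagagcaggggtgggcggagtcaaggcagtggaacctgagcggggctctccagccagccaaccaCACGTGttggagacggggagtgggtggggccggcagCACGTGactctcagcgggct
Ldb3, chr14:34588682-34588931, minus strand: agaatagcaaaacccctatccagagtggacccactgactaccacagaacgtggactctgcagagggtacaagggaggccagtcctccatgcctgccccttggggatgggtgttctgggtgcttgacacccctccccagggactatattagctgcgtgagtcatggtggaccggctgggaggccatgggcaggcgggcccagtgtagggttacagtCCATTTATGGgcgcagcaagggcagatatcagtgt
Flnc, chr6:29432903-29433152, plus strand: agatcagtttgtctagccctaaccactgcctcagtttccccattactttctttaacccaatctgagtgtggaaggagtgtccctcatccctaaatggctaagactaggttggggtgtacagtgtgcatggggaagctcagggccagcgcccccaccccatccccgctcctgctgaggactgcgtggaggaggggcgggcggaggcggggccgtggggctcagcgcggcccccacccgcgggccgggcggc
Actn4, chr7:28962352-28962582, minus strand: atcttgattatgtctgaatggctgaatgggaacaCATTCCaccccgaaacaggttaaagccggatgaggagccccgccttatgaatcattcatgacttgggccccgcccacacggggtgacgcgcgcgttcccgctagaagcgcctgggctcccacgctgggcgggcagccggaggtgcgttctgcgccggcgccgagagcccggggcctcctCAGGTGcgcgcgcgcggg
An E-box was present in 66.2% of 32851 RefSeq windows of the same length, MCAT in 12.6%, the GC box GGGCGG in 32.7%, the MEF2 site in 2.92% and a CArG box in 1.47%. The full Actn2 window held 3 E-boxes, of which the pair with the letters CACGTG begins 84 and 48 bases before the start. Ldb3 held a CArG box with the letters CCATTTATGG, 35 to 26 bases before the start, and no E-box. The Flnc window held 3 copies of the GC box, the first pair of which overlap, and none of the motifs in capitals. RefSeq has a second Flnc start, where the only deposited Flnc transcript begins. Its window (chr6:29433006-29433255, not shown) held 1 MCAT motif, 104 to 99 bases before that start. In the full Actn4 window 3 GC boxes, 1 E-box and 1 MCAT motif were found. No MEF2 site or TATAAA was found in these windows. A match is a match of letters, and binding was not measured.

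Alpha-actinin RNA was made up of different genes in the 3 populations. In fibres, Actn3 held 96.3% ± 0.706 (SD, n = 3) of the summed FPKM of the 4 genes and Actn2 3.56% ± 0.671. In EC, Actn4 held 66.1% ± 10.3 and Actn1 33.9% ± 10.3. SC held all 4: Actn4 59.9% ± 2.02, Actn3 21.9% ± 2.90, Actn1 16.7% ± 1.76 and Actn2 1.46% ± 0.874 (n = 2). The summed level was 1164 ± 17.2 FPKM in SMF, 117 ± 13.9 in EC and 97.3 ± 3.65 in SC. Shares within a library do not depend on how libraries are scaled, but they do depend on the gene model. In the deposited TPM table (a unit also corrected for length, here on loci assembled by the authors) Actn3 held 12.8% in SC and Actn4 75.9%, with the same gene first in each population.

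**Figure D2:**
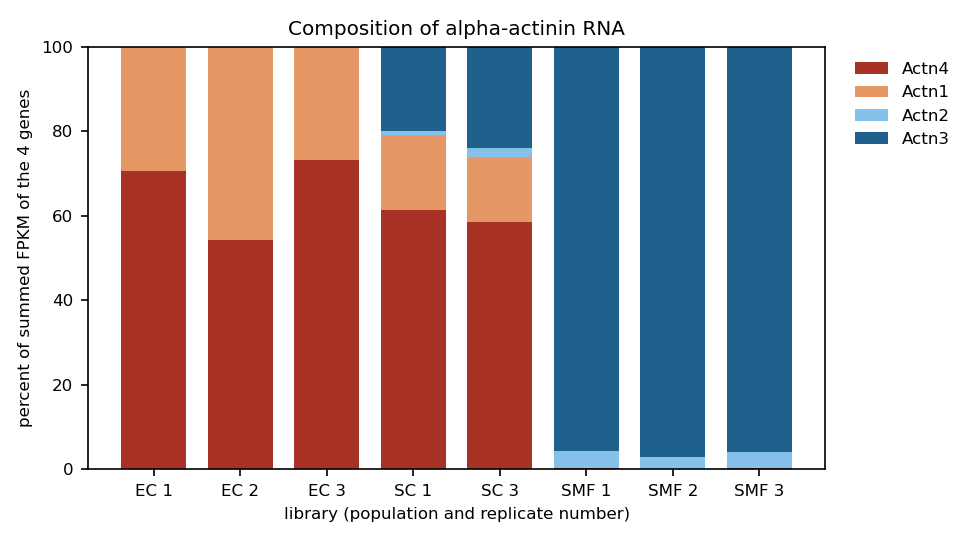
Share of each alpha-actinin gene in the summed FPKM of Actn1, Actn2, Actn3 and Actn4, in percent, for each of the 8 libraries. Actn4 and Actn1 fill the EC bars, Actn3 holds 95.8% to 97.1% in SMF, and SC show both kinds.

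Actn3 (chromosome 19, 4861216 to 4877909, GRCm38), the alpha-actinin of fast fibres, was the most abundant of the 10 genes in SMF. It stood at 1134, 1117 and 1112 FPKM in SMF replicates 1 to 3, at 19.9 and 22.7 in SC replicates 1 and 3, and at 0.0912, 0 and 0 in EC. The 3 groups did not overlap, and the SMF mean was 52.6 times that of SC. On the log2(FPKM + 1) scale, which understates differences of low values, SC exceeded EC by 4.43 (SE 0.14, limma adjusted p = 8.65e-07) and lay below SMF (SC minus SMF -5.66, SE 0.14, adjusted p = 4.77e-07).

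Actn2 (chromosome 13, 12269426 to 12340732), the alpha-actinin of all striated muscle, had the same order at far lower levels. It stood at 47.6, 32.1 and 44.8 FPKM in SMF, 0.845 and 1.97 in SC, and 0.0852, 0 and 0 in EC. All 3 groups were separate (SC minus SMF log2 -4.16, SE 0.25, adjusted p = 7.58e-06, and SC minus EC 1.19, SE 0.25, adjusted p = 0.00713). Within the same fibre library the Actn3 level was 23.8, 34.8 and 24.8 times the Actn2 level, and within the SC libraries 23.5 and 11.5 times. The SC values of Actn2 rest on few reads, about 9.8 and 20.2 fragments if each gave 100 aligned bases.

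Actn4 (chromosome 7, 28893248 to 28962351), an alpha-actinin of adhesions and of the nucleus, was the most abundant of the 10 genes in EC. It stood at 76.0, 72.0 and 80.2 FPKM in EC, 61.3 and 55.4 in SC and 1.90, 1.50 and 2.09 in SMF. SC exceeded SMF by a log2 of 4.39 (SE 0.15, adjusted p = 1.08e-06) and EC exceeded SMF by 4.77 (SE 0.14, adjusted p = 1.51e-07). Between SC and EC the libraries did not overlap, yet the difference missed the threshold (log2 -0.38, 95% interval -0.74 to -0.02, adjusted p = 0.0925). It passed under median-of-ratios scaling (log2 -0.55, adjusted p = 0.0449) and when each group's 50 most abundant genes were left out of the scaling (log2 -0.73, adjusted p = 0.0131).

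Actn1 (chromosome 12, 80167542 to 80260420), the alpha-actinin of focal adhesions and stress fibres, was lowest in fibres as well. It stood at 31.5, 60.6 and 29.2 FPKM in EC, 17.9 and 14.6 in SC, and 0.214, 0 and 0.314 in SMF. EC replicate 2, the library with lower sums of mural and leukocyte markers, was the highest for Actn1, and the part of those cells in this value was not tested. EC exceeded SMF by a log2 of 5.07 (SE 0.28, adjusted p = 2.41e-06) and SC exceeded SMF by 3.88 (SE 0.31, adjusted p = 2.82e-05). The difference between SC and EC (log2 -1.19, SE 0.31, adjusted p = 0.0194) was lost without SC replicate 1 (adjusted p = 0.0576), without SC replicate 3 (0.108), with a pseudocount of 0.1 (0.171), in a fit of only these groups (0.0524) and with the replicate number as a block (0.0586).

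The genes whose levels followed each alpha-actinin most closely were named by Pearson's r of log2(FPKM + 1) over the 8 libraries, which mostly reflects the group means. For Actn3 they were Mybpc1 (r = 0.999), a myosin-binding protein gene, Alpk3 and Jph1. For Actn2 they were Cacnb1, Plpp7 and Slc25a4, and for Actn4 Rarg, Plxna2 and Kat6a. For Actn1 they were Gnaq, Atp1b3 and Scaper (r = 0.998 for each of the 3), and Atp1b3, a subunit gene of the sodium pump, was also highest in EC replicate 2, at 56.1 FPKM against 31.1 and 31.9.

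The scaffold and anchor genes Tcap, Myot, Myoz1 and Ldb3 were all highest in fibres. Tcap (chromosome 11, 98383811 to 98384953), which encodes telethonin, stood at 573, 501 and 569 FPKM in SMF, 5.93 and 7.05 in SC, and 0, 1.57 and 0 in EC. SC lay between the other groups without overlap (SC minus SMF log2 -6.20, SE 0.39, adjusted p = 1.02e-05, and SC minus EC 2.45, SE 0.39, adjusted p = 0.00215). Myot (chromosome 18, 44334053 to 44355740), which encodes myotilin, stood at 233, 222 and 227 in SMF, 1.91 and 1.52 in SC, with each of the 3 EC libraries at 0. It was called higher in SC than in EC (log2 1.44, SE 0.13, adjusted p = 0.000116) and higher in SMF than in SC (log2 -6.40, SE 0.13, adjusted p = 3.21e-07). The listed transcript of Myot held only about 7.8 and 9.3 fragments of 100 aligned bases in SC.

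Myoz1 (chromosome 14, 20649102 to 20656540), the myozenin of fast fibres, which also tethers calcineurin, stood at 341, 360.3 and 389 FPKM in SMF. It was listed at 0 in SC replicate 1 and at 2.31 in SC replicate 3, and in EC it stood at 0.241, 0 and 0.511, so that SC and EC overlapped. That comparison was not called (log2 0.56, 95% interval -0.48 to 1.60, adjusted p = 0.372), and SC replicate 3 alone carried its sign: the difference was -0.30 without this library and 1.43 (adjusted p = 0.00893) without SC replicate 1. SMF exceeded SC with no overlap (SC minus SMF log2 -7.64, SE 0.45, adjusted p = 7.16e-06).

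Ldb3 (chromosome 14, 34526699 to 34590314) encodes a PDZ and LIM domain protein that binds alpha-actinin, and its fibre libraries were close together, at 92.3, 93.2 and 92.9 FPKM. It stood at 0.528 and 0.939 in SC and at 0.0769, 0 and 0.352 in EC. The groups did not overlap, and SC lay below SMF (log2 -5.77, SE 0.18, adjusted p = 7.5e-07). The small difference between SC and EC (log2 0.60, SE 0.18, adjusted p = 0.0324) was lost under each of the 3 other scalings (adjusted p = 0.0728, 0.0682 and 0.123), with no filter on low values (0.0574), with the replicate block (0.0611) and without any 1 of 6 libraries: EC replicate 1 (0.0784), EC replicate 2 (0.0652), SC replicate 3 (0.184) and SMF replicates 1 to 3 (0.0558, 0.0567 and 0.0567).

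Flnc (chromosome 6, 29433153 to 29461889), the muscle filamin, departed from the other fibre genes in satellite cells. It stood at 90.8 and 71.2 FPKM in SC, 87.0, 45.9 and 48.9 in SMF, and 0.735, 1.23 and 0.920 in EC. SC and SMF overlapped, and both lay far above EC (SC minus EC log2 5.38, SE 0.29, adjusted p = 7.73e-06, and EC minus SMF -4.92, SE 0.26, adjusted p = 1.94e-06). As deposited, SC and SMF did not differ past the threshold (SC minus SMF log2 0.46, 95% interval -0.21 to 1.14, adjusted p = 0.196), and the sign turned under median-of-ratios scaling (log2 -1.11, adjusted p = 0.0211) and when the most abundant genes were left out of the scaling (log2 -0.58, adjusted p = 0.144). SMF replicate 1 was the high fibre library, and without it SC was called higher (log2 0.75, adjusted p = 0.0173). FPKM is relative to all fragments, and over all 16700 tested genes the median difference SC minus SMF was 0.93, against which Flnc lay 0.46 lower (log2 -0.46).

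Flna, which encodes an actin crosslinker of the same family as Flnc and was set beside it after its values were seen, had another order. It stood at 37.3 ± 11.5 FPKM in EC, 58.5 ± 9.40 in SC and 1.27 ± 0.310 in SMF. SC exceeded SMF by a log2 of 4.71 (adjusted p = 7.77e-06) and EC exceeded SMF by 4.03 (adjusted p = 4.63e-06), while SC and EC did not differ past the threshold (log2 0.68, adjusted p = 0.0995). In each SMF library the Flnc level was above that of Flna, and in each EC library it was below.

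Csrp3 (chromosome 7, 48830398 to 48848051) was the member with the lowest level in SMF apart from Actn1. It stood at 0.649, 0.228 and 0 FPKM in SMF, 1.27 and 2.50 in SC, and 0, 0.248 and 0 in EC. SC lay above the other groups without overlap (SC minus EC log2 1.39, SE 0.29, adjusted p = 0.00725, and SC minus SMF 1.15, SE 0.29, adjusted p = 0.00877). Both calls were lost under median-of-ratios scaling (log2 1.01, adjusted p = 0.0537, and 0.53, adjusted p = 0.223). Csrp3 passed the filter on low values only through its SC libraries, and its difference SC minus SMF was 0.23 above that of the median gene. Without either SC library it fell below that filter and was not tested. In TPM it stood at 0.895 and 3.28 in SC and 0.960, 0.168 and 0 in SMF. There SC and SMF overlapped, and Csrp3 again fell below the filter. Slow and cardiac fibre genes were also low in SMF, where the sum of 6 such markers was 0.197 to 3.13 FPKM, with Myl2 listed at 0, against 5.41 and 18.0 in SC, where SC replicate 3 was again the higher. Their part in the Csrp3 level was not tested.

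The LIM protein relatives of Csrp3 stood at other levels, Csrp2 being added here after its values were seen. Csrp1 stood at 53.1 ± 7.31 FPKM in EC, 29.5 ± 7.41 in SC and 0.909 ± 0.124 in SMF (EC minus SMF log2 4.82, adjusted p = 3.74e-07). Csrp2 stood at 12.4, 25.7 and 17.3 in EC, 12.1 and 13.6 in SC and 0.414, 0 and 0 in SMF, called higher in EC (adjusted p = 5.91e-06) and SC (adjusted p = 3.04e-05) than in SMF.

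Counted over all 10 genes, each of which passed the filter of at least 1 FPKM in at least 2 libraries, the muscle genes separated fibres from EC and, for the most part, from SC. Ldb3 passed that filter through fibres alone, Actn2 and Myoz1 through fibres and SC replicate 3. Csrp3 passed it through the SC libraries alone. Ldb3 in fibres and Csrp3 in SC were thus tested only through the group where they were then called higher. Those calls are counted below but lend no support. Between EC and SMF 9 genes were called, where 66.3% of the 16700 tested genes were called in either direction: 7 were higher in SMF (Actn2, Actn3, Ldb3, Myoz1, Tcap, Myot and Flnc), against a background of 10.8%, and 2 were higher in EC (Actn1 and Actn4), against 55.5%. Csrp3 was not called in that comparison (log2 -0.23, 95% interval -0.84 to 0.37, adjusted p = 0.449). Between SC and SMF 9 were called (background 65.1%): 6 were higher in SMF (background 8.57%) and 3 in SC (Actn1, Actn4 and Csrp3, background 56.5%), with Flnc not called. Between SC and EC 8 were called (background 37.7%): 7 were higher in SC (21.2%) and Actn1 in EC (16.4%), with Actn4 and Myoz1 not called. The libraries of the groups compared did not overlap for 9 of the 10 genes in each comparison, where the background was 70.8% for EC and SMF, 77.8% for SC and SMF and 54.7% for SC and EC.

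The median difference of the 10 genes was -5.86 for EC minus SMF, -4.91 for SC minus SMF and 1.29 for SC minus EC, against 0.85, 0.93 and 0.11 over all tested genes. Those medians of all genes were 0.09, 0.12 and -0.01 under median-of-ratios scaling, so levels relative to all fragments and relative to the typical gene differ most where fibres are compared. Under that scaling the split of the 10 genes was 2 higher in EC and 7 in SMF, 2 higher in SC and 7 in SMF, and 5 higher in SC and 2 in EC. The background then was 32.0% higher in EC and 28.4% in SMF, 26.8% higher in SC and 25.5% in SMF, and 15.3% higher in SC and 17.9% in EC. With each group's 50 most abundant genes left out of the scaling, the split between SC and EC was also 5 against 2 (background 12.2% and 20.4%).

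**Figure D3:**
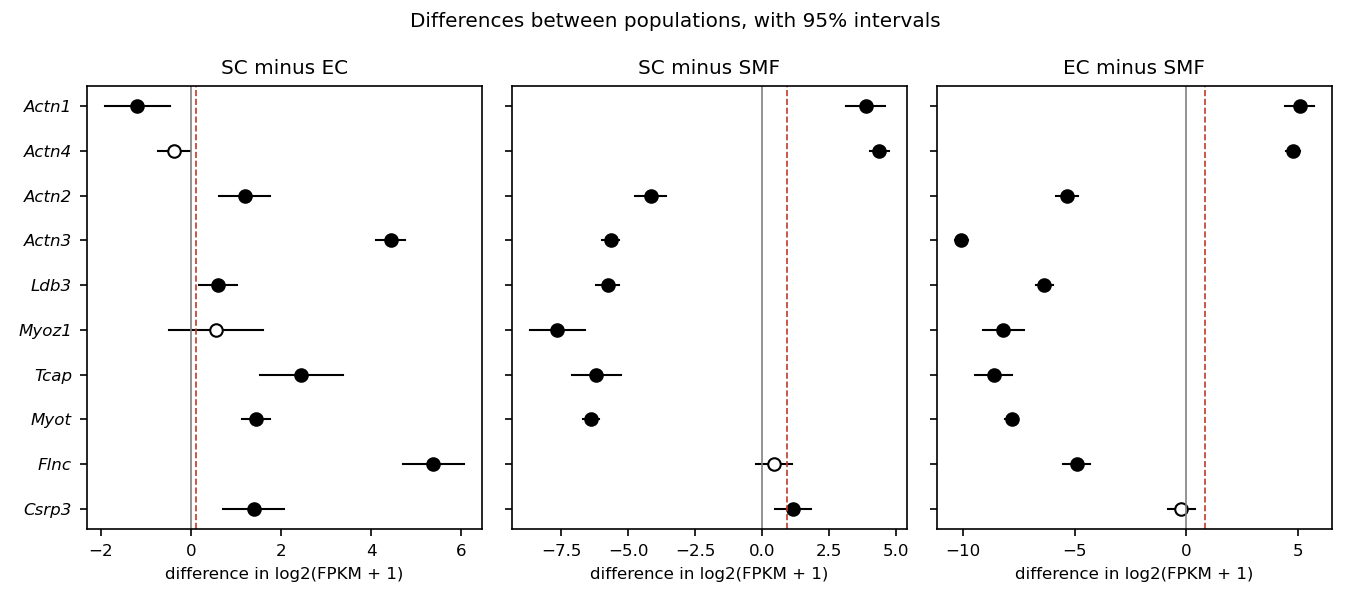
Differences between populations in log2(FPKM + 1) for the 10 genes, with 95% intervals from limma; filled points were called, the grey line marks 0 and the dashed red line the median of all tested genes. Actn1 and Actn4 lie to the right wherever fibres are the second group, and the difference of Flnc between SC and SMF (0.46 as deposited) turns to -1.11 under median-of-ratios scaling.

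The SC values of fibre genes are given here beside those of fibre markers in the same libraries. The 8 fibre markers stood in SC at 0.0528% (Myh4, the fastest myosin heavy chain) to 2.24% (Acta1, skeletal actin) of their SMF mean, with a median of 0.500%. Myoz1 (0.318%), Myot (0.754%), Ldb3 (0.790%), Tcap (1.19%) and Actn3 (1.90%) lay inside that range, Actn2 (3.39%) above it, and Flnc (134%) far above it. In both Actn2 and the summed fibre markers, SC replicate 3 was the higher library (1.97 against 0.845 FPKM, and 257 against 162). It was also the higher for Actn3 (22.7 against 19.9), Ldb3, Myoz1 and Tcap. Myot (1.52 against 1.91) and Flnc (71.2 against 90.8) were lower in SC replicate 3 than in SC replicate 1. The part of fibre RNA in the SC levels of these genes was not tested. In EC, the fibre markers stood at 0.0136% to 0.152% of SMF, and Flnc at 1.59%.

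**Figure D4:**
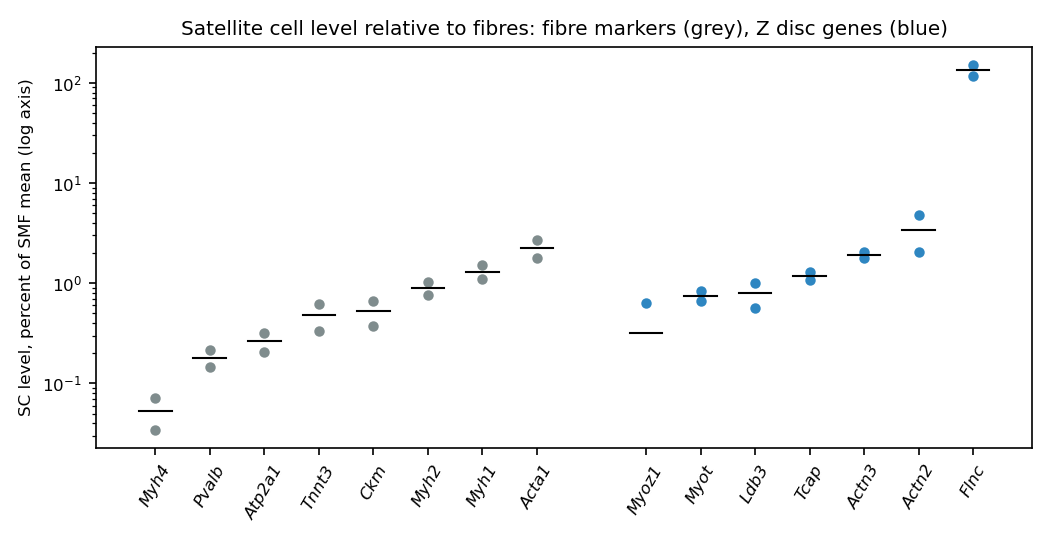
Level in SC as a percent of the SMF mean, on a log axis, for 8 fibre markers (grey) and 7 Z disc genes (blue); points are the SC libraries and bars their mean, and a library listed at 0 (Myoz1, SC replicate 1) has no point. Flnc, at 134%, stands apart from the other genes, which lie between 0.0528% and 3.39%.

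The transcript table listed between 0 and 7 transcripts for each gene and did not hold all annotated forms, so shares are among listed transcripts only. For Ldb3, which is known for long and short forms, an 8-exon form (ENSMUST00000022330, chr14:34561253-34588681) held 100% of the listed FPKM in each fibre library, at 141, 134 and 146 FPKM. The 14-exon form (ENSMUST00000022327) was listed at 0 there. For Actn3, the 21-exon coding form held 99.3%, 99.3% and 99.0% in SMF, and for Actn2 the 21-exon form held 88.7%, 92.0% and 96.7%, the rest being a 4-exon transcript that GENCODE types as a retained intron.

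In Actn4, the 21-exon coding form held 80.5%, 73.2% and 74.1% in EC and 71.5% and 62.7% in SC. Transcripts typed as retained introns held 18.2%, 26.2% and 25.3% in EC and 26.3% and 35.0% in SC. These shares are descriptions and carry no test. For Csrp3, a retained-intron transcript (ENSMUST00000208146) held 100% of the listed FPKM in SC replicate 1 and 48.8% in SC replicate 3, on about 10.4 and 13.2 fragments of 100 aligned bases. The only listed transcript of Flnc was a 2-exon retained intron, and Tcap had none.

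A list of 31 other genes was set down for the Z disc, and it also holds muscle genes not confined to it, such as Jph1, Murc and Trim63. The 30 that were tested were mostly fibre genes as well. Against EC, 26 were higher in SMF and 2 in EC (10.8% and 55.5% over all tested genes), and against SC 20 were higher in SMF and 4 in SC (8.57% and 56.5%). Myoz2, named after its values were seen, passed the filter on low values only through SC (2.00 and 1.37 FPKM). It is counted among the genes called higher in SC, both against SMF and against EC. Myoz3, at 0 in all EC and SC libraries, passed only through fibres. The median differences of the 30 were -4.07 (EC minus SMF) and -2.95 (SC minus SMF), against 0.85 and 0.93 over all tested genes. Ankrd23, a titin-binding ankyrin repeat gene, stood at 279 ± 24.5 FPKM in SMF, 3.25 ± 1.40 in SC and 0.912 ± 0.351 in EC. Xirp2, which encodes an actin-binding protein, stood at 251 ± 43.8, 3.19 ± 1.32 and 0.346 ± 0.0979, and Cmya5 (myospryn) at 246 ± 34.9, 2.24 ± 0.906 and 0.735 ± 0.130. Nexn, which encodes nexilin, stood at 146 ± 9.48 in SMF and 20.7 ± 4.70 in SC (log2 -2.77, adjusted p = 1.86e-05). Bag3, a chaperone partner of filamin, was higher in SC (158 ± 4.90) than in SMF (39.2 ± 11.3; log2 2.02, adjusted p = 0.000173), a call lost under median-of-ratios scaling (log2 0.45, adjusted p = 0.186). Capza1, a subunit of the capping protein of actin filaments, was higher in EC (12.7 ± 1.01) and SC (9.22 ± 1.20) than in SMF (1.84 ± 0.706), the second call being lost under that scaling (log2 0.64, adjusted p = 0.0632). Nebl, which encodes nebulette, stood at 0.865, 1.07 and 1.03 in EC and was at 0 in the SMF libraries (adjusted p = 0.00196). It passed the filter on low values only through EC replicates 2 and 3, and under the 3 other scalings it fell below that filter and was not tested. Under median-of-ratios scaling none of the list was called higher in SC than in SMF and 26 were higher in SMF (26.8% and 25.5% over all tested genes).

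Between SC and EC, 17 of the 30 were higher in SC and 1, Pdlim5, in EC (log2 -1.14, adjusted p = 0.00362), with a median of 0.76 against 0.11 over all tested genes, of which 21.2% were called higher in SC and 16.4% in EC. With each group's 50 most abundant genes left out of the scaling, 11 were higher in SC and 2 in EC (12.2% and 20.4% over all tested genes). Cryab, a small heat shock protein gene, stood at 89.1 ± 3.55 FPKM in SC, 137 ± 26.3 in SMF, and 5.98, 0 and 2.54 in EC (SC minus EC log2 4.95, adjusted p = 0.00105; SC minus SMF -0.60, adjusted p = 0.464). Under median-of-ratios scaling Cryab was called lower in SC than in SMF (log2 -2.18, adjusted p = 0.0161). Ankrd1, named after its values were seen, had levels close to those of Flnc: 50.3 and 63.1 in SC, 83.7, 45.3 and 52.3 in SMF, and 0.351, 0 and 0 in EC. Its SC and SMF libraries overlapped (log2 -0.05, adjusted p = 0.891), while median-of-ratios scaling called it lower in SC (log2 -1.62, adjusted p = 0.00171).

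Partners of the non-muscle alpha-actinins at adhesions and stress fibres, from a list of 24 of which 23 were tested, are read here against all tested genes, most of which were also higher in the sorted cells as deposited. Of the 23, 21 were higher in EC than in SMF and 1, Palld, in SMF (55.5% and 10.8% over all tested genes), and 17 were higher in SC than in SMF and 1, Parvb, in SMF (56.5% and 8.57%). Under median-of-ratios scaling the counts were 16 against 2 (32.0% and 28.4%), and 13 against 3 (26.8% and 25.5%). The median differences were 2.46 and 2.13, against 0.85 and 0.93 over all tested genes. Fermt2 (kindlin 2), at 63.5 ± 11.1 FPKM in EC, 55.0 ± 4.85 in SC and 24.5 ± 2.44 in SMF, was called higher in EC (log2 1.33) and SC (1.14) than in SMF as deposited, and turned to -0.04 and -0.41 under that scaling. Tln1 (talin 1) stood at 36.6 ± 7.09 FPKM in EC, 21.0 ± 5.27 in SC and 3.95 ± 0.587 in SMF. Lima1, which encodes the actin-bundling protein EPLIN, stood at 24.9 ± 5.34, 11.9 ± 2.92 and 0.585 ± 0.102. Between SC and EC, 9 were higher in EC (16.4% over all tested genes) and 5 in SC, a share near the 21.2% over all tested genes, with a median of -0.36. Under upper-quartile scaling 6 were higher in EC, where 1824 of 16174 tested genes were. The calls of Csrp1, Tln1 and Lima1 in that direction were lost under upper-quartile scaling (adjusted p = 0.181, 0.302 and 0.0584). Pdlim4, whose product binds alpha-actinin, stood at 63.3 and 69.3 FPKM in SC, 1.44, 3.80 and 4.46 in EC, and 0, 0.203 and 0.105 in SMF (SC minus EC log2 4.07, adjusted p = 5.57e-05). Tln2 (talin 2) was also highest in SC, at 42.3 ± 5.69 against 6.91 ± 0.940 in EC and 4.90 ± 0.154 in SMF. The sum of the fibro-adipogenic markers, too, was highest in SC, mostly through Dpt and Col3a1. The part of fibro-adipogenic cells in the SC levels of Pdlim4, Tln2, Flnc and Csrp3 was not tested.

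**Figure D5:**
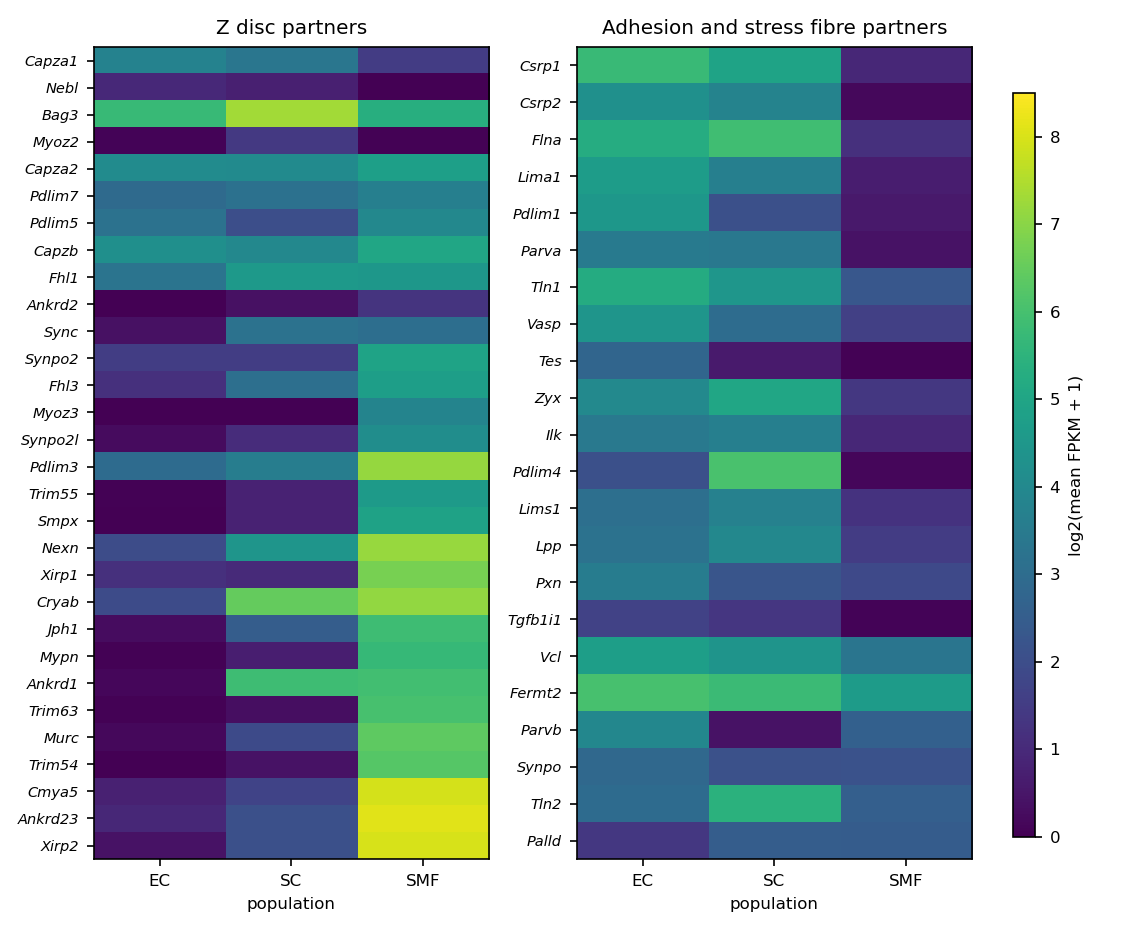
Mean level of the genes tested from both partner lists, those not reported here left out, in EC, SC and SMF, as log2(mean FPKM + 1), each gene in a row ordered by its difference EC minus SMF. Xirp2, Ankrd23 and Cmya5 are bright in SMF only, Csrp1 is bright at the EC end, and Pdlim4 and Tln2 are brightest in SC.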

How the data were processed

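RNA was extracted from the sorted cells and picked fibres, and libraries were made from 10 ng with a strand-keeping kit for total RNA and sequenced as pairs of 50 bp, per the labels' protocols. The submitters' processing notes name HISAT2, StringTie, bedtools, FastQC and Trimmomatic, and mm10 as genome; for versions, settings and use of strand, nothing was given in the sources used here. The authors deposited FPKM per gene and per transcript, read coverage per base of each transcript (a signal with no scaling), and TPM per locus of their own assembly, with population means and a specificity score that was not used here. FPKM and TPM are relative to a library's total, so a more abundant RNA lowers the values of the others.

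The planned count test applies to counts alone, so log2(FPKM + 1) was tested with limma 3.58.1 (trend) in R 4.3.3, with the 8 libraries in 1 model, 3 comparisons and Benjamini-Hochberg adjustment over 16700 genes with at least 1 FPKM in at least 2 libraries; genes under an adjusted p of 0.05 were called. The test was checked on simulated data. Fragment numbers were taken as coverage times length divided by 100 bases. Alternatives were 18: pseudocount, filters, 3 scalings, the TPM table, no trend, only the groups compared, a replicate block and each library left out.

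All 10 members are named; from each partner list and comparison, up to 4 called genes of highest mean FPKM in the direction of most called genes and up to 2 in the other; and the 3 genes of highest correlation with each alpha-actinin. A gene of the adhesion list is counted but not reported here by name. The members and lists were chosen with earlier results of these data known. Transcript types are from GENCODE M39, matched by identifier, and gene positions are those of RefSeq (GRCm38.p6).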

Additional observations from a re-analysis of the deposited data

How the results depend on the processing

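Of the members' differences recomputed under the alternatives, 496 kept direction and side of the threshold, 18 lost the call, 4 gained it and 3 reversed. The reversals were Flnc in SC minus SMF (-1.11 under median-of-ratios scaling, -0.58 when each group's 50 most abundant genes were left out of the scaling) and Myoz1 in SC minus EC, which ranged from -0.30 to 1.43 as single libraries were left out; the cause was not tested. Members called between SC and EC numbered 8, 5 when only these groups were fitted (fewer members were then tested), and 5 to 8 with a library left out, 5 being without SC replicate 3; the lone SC library is then assumed to vary like the other groups. Over all genes 6288, 10867 and 11079 were called (SC against EC, SC against SMF, EC against SMF). With a minimum of 5 FPKM, which tests fewer genes, these were 4089, 6183 and 6311. With a library left out, SC against EC gave 4042 (without SC replicate 1) to 6368, and 4115 without SC replicate 3. Same-numbered libraries did not deviate together (correlations of -0.058 to 0.091), so the numbers were not taken to pair samples; with the replicate block 6, 9 and 9 members and 5515, 10279 and 11020 genes were called. In the TPM table the alpha-actinin shares moved: Actn1 21.7% in EC and 10.2% in SC, Actn2 4.46% in SMF, Actn3 12.8% in SC and 95.2% in SMF, Actn4 78.3% in EC, 75.9% in SC and 0.326% in SMF. With 2 SC libraries and 1 fragment per kb worth up to 0.360 FPKM, SC levels under about 1 FPKM rest on few fragments. Somewhat higher SC levels can as well, such as Myoz1 at 2.31 FPKM in SC replicate 3, on about 8.3 fragments.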
